A study of Mus musculus with 8 samples.

Results

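The sirtuin genes of the mouse, Sirt1 to Sirt7, were examined in the merged list of H3K56ac peaks from muscle stem cells (MuSCs). The genes were taken by name, all 7 of the family, and the peaks were those that overlapped by at least 1 bp one of these genes or the 10 kb on either side of it. This gave 35 peaks of the 105600 in the list, set among 21938 protein-coding genes of the GENCODE annotation of mm10.

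H3K56ac, histone H3 with an acetyl group on lysine 56, was mapped by ChIP-seq, the sequencing of chromatin fragments pulled down with an antibody, in freshly isolated MuSCs of C57BL/6 mice (8 libraries). Control MuSCs, labelled as wild type, gave 2 H3K56ac and 2 input libraries, and Sirt6mKO MuSCs gave 2 of each as well. Sirt6mKO mice carried Sirt6 alleles with loxP sites around exons 4 to 6 and a constitutive Cre expressed from Pax7, so that the deletion affects the whole muscle lineage and not MuSCs alone. The deposited list gives 1 merged set of intervals and does not say which libraries entered the merge. It holds 0 columns of values per sample and does not name a genotype, so every value below is a position or a width without replicate error, no test was possible, and Control and Sirt6mKO cannot be told apart.

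Sirtuins are enzymes that use NAD to remove acetyl and other acyl groups from proteins. SIRT1, SIRT6 and SIRT7 act mainly in the nucleus, where histones are among their substrates, SIRT2 acts mainly in the cytoplasm, and SIRT3, SIRT4 and SIRT5 reside in mitochondria. SIRT6 is a chromatin-bound deacetylase of histone H3, and the mark mapped here is one of its substrates. H3K56ac is found in nucleosomes at active promoters and enhancers.

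All 7 sirtuin genes had a peak directly over the transcription start site (TSS) of their reference transcript, and in each of them this peak held the first exon completely. Among all protein-coding genes, 57.9% had such a peak. With the wider definition of a promoter peak, any peak within 3 kb of an annotated TSS, 7 of 7 sirtuin genes had one against 67.8% of all protein-coding genes. The width of the peak over the TSS was 3816 bp in Sirt1, 9625 bp in Sirt2, 3604 bp in Sirt3, 3096 bp in Sirt4, 2339 bp in Sirt5, 2624 bp in Sirt6 and 3111 bp in Sirt7. The widest, at Sirt2, was 4.12 times as wide as the narrowest, at Sirt5. The median over the 7 genes was 3111 bp, and over the 12697 protein-coding genes with a peak at the reference TSS it was 3433 bp with quartiles of 2345 and 4881.5 bp. Sirt1, Sirt2 and Sirt3 lay above that median, Sirt4, Sirt6 and Sirt7 lay between it and the lower quartile, and Sirt5 lay just under the lower quartile. Sirt2 was at percentile 96.4, while the other 6 lay between percentile 24.8 (Sirt5) and percentile 58.3 (Sirt1).

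**Figure D1:**
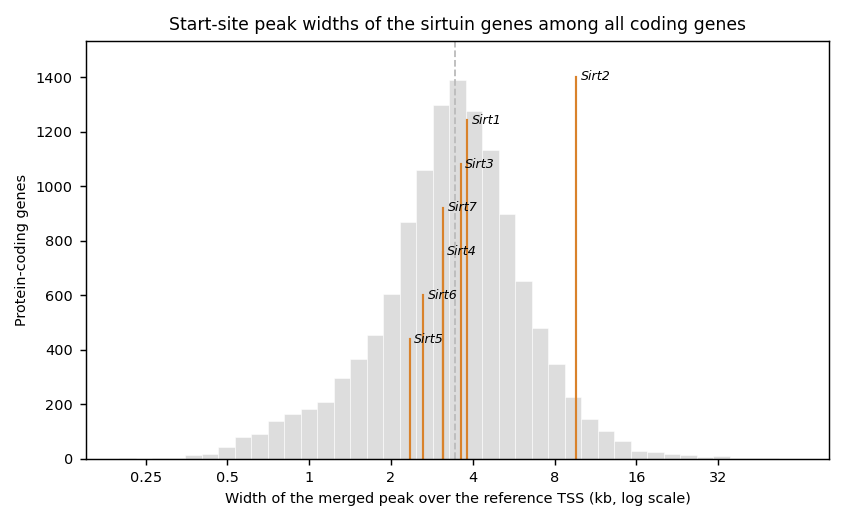
Histogram of the width of the merged H3K56ac peak over the reference TSS (kb, log scale) for the 12697 protein-coding genes that have one (grey bars, number of genes), with the median as a dashed line. Orange lines mark the 7 sirtuin genes, and their heights only separate the names; Sirt4 (3096 bp) and Sirt7 (3111 bp) nearly coincide, and Sirt2 (9625 bp) stands in the right tail.

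Measured from the reference TSS, the single peaks reached farther into the gene than upstream of it in all 7 cases. This count depends on the breaks in the list and on the start chosen. At Sirt5 a further interval of 1385 bp lay 39 bp upstream, and with it joined the upstream part was the larger. From the RefSeq start of Sirt6, which lies farther into the gene, the upstream part was also the larger. The share of all protein-coding genes with such a peak was not counted. The part downstream of the TSS made up 53.1% of the peak in Sirt6, 53.3% in Sirt4, 55% in Sirt5, 58.2% in Sirt7, 65.8% in Sirt3, 75.8% in Sirt2 and 97.1% in Sirt1. The median over all protein-coding genes with such a peak was 59%, so that 4 sirtuin genes were below it and 3 above. Upstream reach was between 1053 bp (Sirt5) and 1445 bp (Sirt4) in 5 of the genes. The exceptions were Sirt2, with 2327 bp, and Sirt1, where the peak began only 110 bp upstream of the start.

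**Figure D2:**
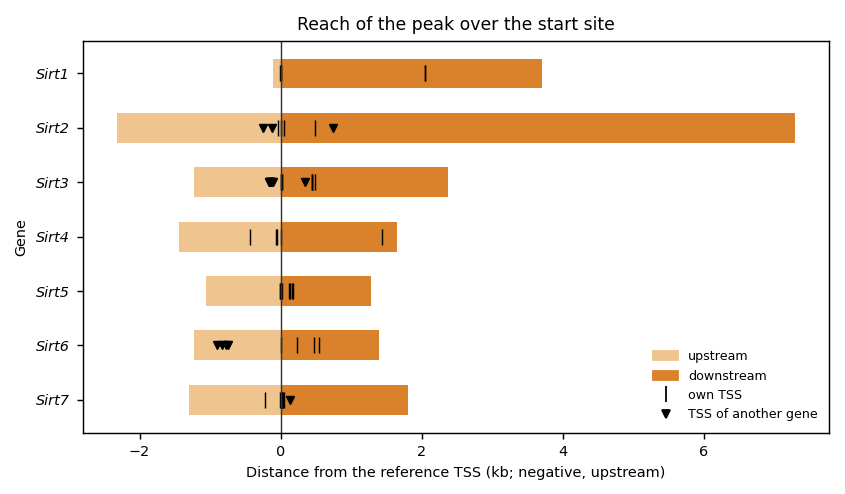
Reach of the peak over the reference TSS in each sirtuin gene (x axis, distance from that TSS in kb; pale bars upstream, dark bars downstream), with annotated start sites of the gene (ticks) and of other genes (triangles). Sirt1 has almost no upstream part (110 bp), whereas Sirt2 extends 2327 bp upstream and 7297 bp downstream.

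The first of the nuclear sirtuins, Sirt1 (ENSMUSG00000020063.16, chromosome 10, 63319005 to 63381704, minus strand), encodes a deacetylase of histones and of transcription factors. It had the most peaks of the family, 11 in its window, of which 8 touched the gene. The annotated gene extends upstream to the distant start of Sirt1-203, so some of these 8 lay upstream of the reference TSS. The peak over the TSS of Sirt1-201 (63335327 to 63339142) covered exons 1, 2 and 3. It was the largest member of a series of 4 intervals from 63334257 to 63341874, separated from its neighbours by 17 bp on the downstream side and by 73 bp and then 180 bp on the upstream side. When intervals less than 1 kb apart were joined, the series became 1 interval of 7618 bp. The 73-bp gap lay between 111 and 183 bp upstream of the TSS, so the list placed a break between intervals directly in front of the Sirt1 start.

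The sequence of that stretch is shown because it holds the break. It lies at chr10:63339051-63339282 on the minus strand (GRCm38, the same build as mm10), contains no annotated exon, and is written 5′ to 3′ toward Sirt1, with the 73 bp between the intervals in capitals:
Sirt1: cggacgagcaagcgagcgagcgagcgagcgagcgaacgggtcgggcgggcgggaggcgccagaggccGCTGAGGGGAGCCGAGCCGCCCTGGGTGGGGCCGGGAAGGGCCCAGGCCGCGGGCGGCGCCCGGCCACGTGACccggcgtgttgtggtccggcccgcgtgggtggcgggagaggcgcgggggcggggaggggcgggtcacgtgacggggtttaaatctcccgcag
The capitals hold 9 CpG dinucleotides and 83.6% G and C. They include 1 of the 2 copies of the E-box CACGTG found in the Sirt1 promoter, and the other copy lies nearer the TSS, under the peak.

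Sirt1 also differed from the rest of the family in a second, distant start. Transcript Sirt1-203 begins at 63381704, and this TSS lay under a separate peak of 2158 bp (63381140 to 63383297). The same peak held the TSS of Dnajc12-202, 739 bp away on the opposite strand; Dnajc12 encodes a co-chaperone of the J-domain type. Another peak of 1701 bp lay at the TSS of Dnajc12-201. Between the series at the reference start and the distant start, the longest gap of any sirtuin window, 33568 bp, had no peak. On the other side, exon 8 of Sirt1 was completely under a peak of 1549 bp (63320915 to 63322463) that also covered 2.55% of the last exon. The remaining peaks of the window, between 413 and 587 bp wide, held no TSS. Exons 4 to 7 of Sirt1 had no peak, and the nearest one was 1504 bp away from exon 7 and 3576 bp away from exon 5.

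Sirt6 (ENSMUSG00000034748.16, chromosome 10, 81621785 to 81627797, minus strand), the gene inactivated in Sirt6mKO mice, had the fewest peaks of the family. Its window held 2, and only the peak over the start touched the gene. All 4 distinct start sites of Sirt6, which span 540 bp, lay under it. Exons 1 and 2 were inside the peak, exon 3 was 507 bp beyond its edge, and exons 3 to 8 had no peak, which left 4620 bp of the gene toward its 3′ end uncovered. Exons 4 to 6, the segment between the loxP sites (81623992 to 81625116, 1125 bp from the first to the last exon base), overlapped 0 peaks and were 1289 bp from the nearest one. The next peak past the 3′ end of Sirt6 was 13111 bp away, outside the window. In Sirt6mKO MuSCs, reads from these exons can come only from alleles that were not recombined. The peak over the start was outside the segment and may come from libraries of either genotype. The other peak of the window, 2172 bp wide, lay upstream of Sirt6 at starts of Ankrd24 transcripts.

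**Figure D3:**
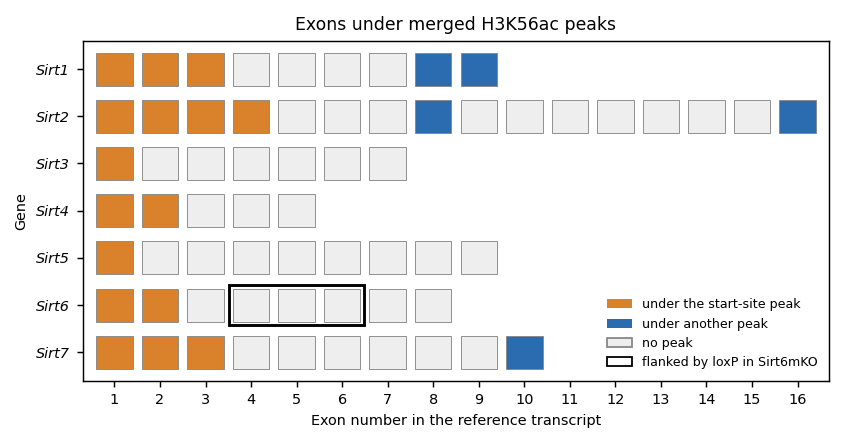
Exons of the reference transcript of each sirtuin gene (x axis, exon number; y axis, gene), coloured by whether they are under the peak over the TSS (orange), under another peak (blue) or under none (grey). The black frame marks exons 4 to 6 of Sirt6, which have no peak; Sirt1, Sirt2 and Sirt7 are the genes with exons under a second peak.

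Of the 4 primer sequences listed for Sirt6, 3 had an exact match in the Sirt6 window, and the reverse primer for the floxed allele had none. The pair for transcript measurement lies in exon 4 (chr10:81625089-81625106) and exon 6 (chr10:81624023-81624040), both inside the segment between the loxP sites, and neither is under a peak. The forward primer for the floxed allele lies in the intron before exon 4 (chr10:81625482-81625501), also outside any peak:
Sirt6 exon 4 forward: gcagagctgcacggaaac
Sirt6 exon 6 reverse: ggtcaggcaacgagtcct
Sirt6 flox forward: aactgactgttgcggcagag
Of the transcript primers for the other sirtuins, the forward primer for Sirt2, in exon 4, and both primers for Sirt4 lay under the peak at the start of the gene. Those for Sirt1, Sirt3 and Sirt5 lay in exons without a peak.

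Sirt7 (ENSMUSG00000025138.14, chromosome 11, 120618372 to 120625240, minus strand) encodes a deacetylase linked to ribosomal DNA transcription. Its peak over the start (120623205 to 120626315) covered exons 1, 2 and 3. A second peak of 3010 bp (120615825 to 120618834) lay over the 3′ end, where it covered 68.3% of the last exon. That interval also held 6 start sites of the neighbour Pcyt2, which encodes an enzyme of phosphatidylethanolamine synthesis, so the signal at the 3′ end of Sirt7 cannot be told apart from the Pcyt2 promoter. The peaks together covered 36.4% of Sirt7, the second highest share of the family. On the upstream side a peak of 4364 bp held start sites of Mafg, which encodes a small MAF transcription factor, and of the noncoding gene Gm17586. The body of Mafg itself ends inside Sirt7, with 124 bp shared between the genes.

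The cytoplasmic member, Sirt2 (ENSMUSG00000015149.14, chromosome 7, 28766735 to 28788661, plus strand), encodes a deacetylase of tubulin and other proteins. It had the widest peak and the largest covered share of the family, with 8 peaks in its window and 55.5% of the gene covered. The peak over the start (28764440 to 28774064) covered exons 1 to 4 and was followed after only 8 bp by a peak of 2223 bp, which held the start of the retained-intron transcript Sirt2-210. Upstream, a peak of 459 bp was 57 bp away. Joining intervals less than 1 kb apart made these 3 into 1 interval of 12372 bp. Farther into the gene, exon 8 was under a peak of 682 bp, a peak of 1340 bp lay in an intron, and the last exon was covered to 79.4% by a peak of 591 bp. This last peak was 214 bp from a peak of 1000 bp over the start of Rinl, which encodes a Ras and Rab interactor-like protein. Exons 5 to 7 and 9 to 15 had no peak.

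The peak over the start of Sirt2 also held 3 start sites of Nfkbib, the gene for an inhibitor of NF-kappaB, on the opposite strand. The nearest starts of the genes, Nfkbib-201 at 28766640 and Sirt2-202 at 28766735, were 95 bp apart. A further Nfkbib start, that of Nfkbib-203, lay 745 bp downstream of the reference TSS of Sirt2, and the genes overlap by 778 bp. The 94 bp between Nfkbib-201 and Sirt2-202 contain no annotated exon and are shown because they separate these nearest divergent starts (chr7:28766641-28766734, plus strand, 5′ to 3′ toward Sirt2, no base in capitals):
Sirt2: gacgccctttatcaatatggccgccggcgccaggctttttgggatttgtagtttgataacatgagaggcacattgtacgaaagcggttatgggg

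In each gene of the mitochondrial sirtuins only 1 peak touched the gene, which was also the case in the nuclear member Sirt6. Sirt3 (ENSMUSG00000025486.17, chromosome 7, 140863666 to 140882309, minus strand) encodes the main deacetylase of mitochondrial proteins, and the peak over its start (140879940 to 140883543) was the only one that touched the gene. It covered exon 1 and left exons 2 to 7 without a peak, the nearest being 1795 bp from exon 2. The other 2 peaks of the window, 5181 and 388 bp wide, lay past the 3′ end at starts of Ric8a, Bet1l and Gm45785.

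Sirt4 (ENSMUSG00000029524.16, chromosome 5, 115478010 to 115484725, minus strand) encodes an enzyme with ADP-ribosyltransferase and lipoamidase activity. The peak over its start (115482647 to 115485742) covered exon 1 and 95.4% of exon 2, and was the only one in the gene, of which 31% was covered. It was not the widest nearby. A peak of 4362 bp downstream of the gene (115472777 to 115477138) lay within 3 kb of the start of a retained-intron transcript, Sirt4-206, and overlapped the end of Pla2g1b, which encodes a secreted phospholipase. Peaks of 627 and 477 bp followed farther out. Upstream, a peak of 4909 bp held small nuclear RNA genes (Gm24265 and Gm24407) and the pseudogene Gm13836. With these flanking peaks, 50.4% of Sirt4 with 10 kb on either side was covered, the highest share of the family in that window.

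Sirt5 (ENSMUSG00000054021.6, chromosome 13, 43365496 to 43395203, plus strand) encodes a desuccinylase. It had the narrowest peak over the start (43364453 to 43366791) and the lowest covered share, 4.36% of the gene. Only exon 1 was under a peak. On the upstream side a peak of 1385 bp followed after a gap of 39 bp. When intervals less than 1 kb apart were joined, these became 1 interval of 3763 bp, and Sirt6, at 2624 bp, was then the narrowest of the family. From the peak at the start, 31362 bp followed without a peak, up to an interval of 1482 bp at Nol7, which encodes a nucleolar protein. Sirt5-201 and Sirt5-209, which start inside the gene at 43370710 and 43379673, lay 3919 and 12882 bp from a peak.

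**Figure D4:**
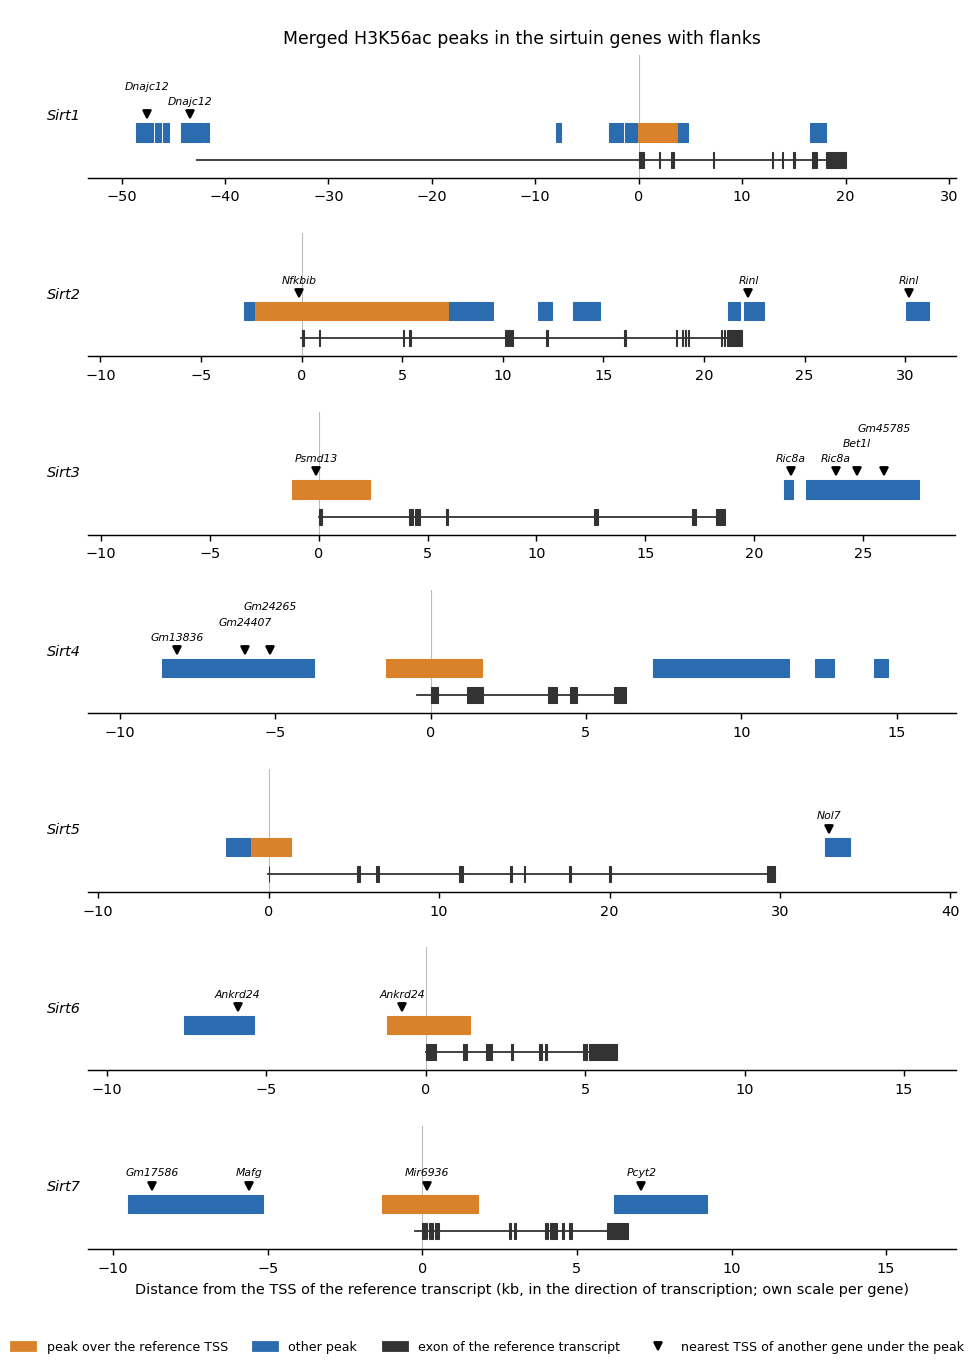
Map of the 7 sirtuin genes with 10 kb on either side (x axis, distance from the reference TSS in kb in the direction of transcription, with its own scale per gene). Orange and blue boxes are merged H3K56ac peaks, dark boxes are exons, and triangles mark the nearest start of another gene under a peak; 19 of the 35 peaks touch a sirtuin gene, and Sirt3, Sirt4, Sirt5 and Sirt6 have only 1 each.

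Across the family, the 35 peaks were 388 to 9625 bp wide with a median of 1482 bp, against a median of 974 bp over the whole list. Of these peaks, 19 touched a sirtuin gene and 16 lay only in the flanks. A TSS of a sirtuin gene was held by 9 of them, 10 held only starts of other genes, and 16 held no annotated TSS. Over the whole list 83.4% of peaks held no TSS, but the windows here were drawn around genes. Among the 35 peaks, the median width was 654.5 bp for those without a TSS and 2624 bp for those with one. The medians of 1482 and 974 bp thus compare sets with different shares of peaks at starts. Of the 28 gaps between neighbouring peaks in a window, 12 were shorter than 1 kb, 6 of them at Sirt1 and 3 at Sirt2, and none at Sirt6 and Sirt7.

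GENCODE lists 54 distinct start sites for the 7 genes, of which 40 lay under a peak. Of the 26 starts of protein-coding transcripts, 22 lay under a peak. The 4 without one were those of Sirt3-203, Sirt5-201, Sirt5-209 and Sirt7-207, at distances of 1793, 3919, 12882 and 2143 bp. All of these start inside the gene, and each of the genes had other coding starts under a peak. No share over the starts of all protein-coding genes is given here, so these counts only describe the 7 genes.

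The reference transcripts have 64 exons, of which 16 were under the peak at the start and 21 under any peak. For exons, too, no share over all protein-coding genes is given. The number under the peak at the start was 4 in Sirt2, 3 in Sirt1 and Sirt7, 2 in Sirt4 and Sirt6 and 1 in Sirt3 and Sirt5. A peak over the last exon was found in Sirt1, Sirt2 and Sirt7. In Sirt3, Sirt4, Sirt5 and Sirt6 every exon under a peak was under the one at the start.

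The covered share of the gene was 55.5% in Sirt2, 36.4% in Sirt7, 31% in Sirt4, 23.2% in Sirt6, 16.6% in Sirt1, 12.7% in Sirt3 and 4.36% in Sirt5, with a median of 23.2%, against 7.82% over all protein-coding genes. A peak of a given width takes a larger share of a shorter gene, and the genes differ in length from 6.01 kb (Sirt6) to 62.7 kb (Sirt1). The length of Sirt1 includes the stretch from the reference TSS to the distant start of Sirt1-203. Its covered share and its percentile therefore depend on that transcript. Among genes within 50% of their own length, Sirt2 was at percentile 96, Sirt7 at 77.2, Sirt1 at 74.6, Sirt4 at 71.3, Sirt6 at 61.7, Sirt3 at 55.1 and Sirt5 at 29.9. Sirt5 was thus the only member less covered than the typical gene of its length when genes without a peak are counted too. Of all protein-coding genes, 30.9% had no peak in the gene, whereas every sirtuin gene had a peak over its start. The median of 7.82% and these percentiles therefore partly restate that the sirtuin genes have a peak. Covered shares among only the genes with a peak were not compared.

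**Figure D5:**
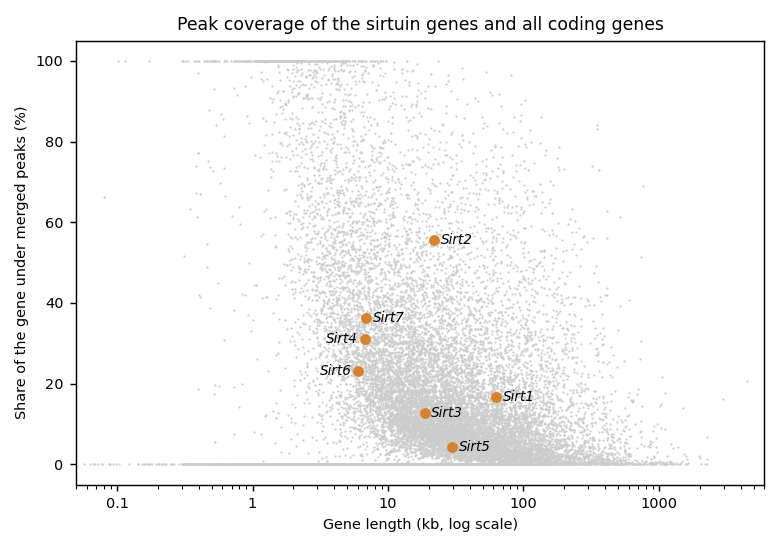
Share of each protein-coding gene under merged peaks (y axis, %) against gene length (x axis, kb, log scale), with all genes in grey and the 7 sirtuin genes in orange. Sirt2 (55.5%) lies high for its length of 21.9 kb, and Sirt5 (4.36%) lies low at 29.7 kb.

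In 4 of the 7 genes, Sirt2, Sirt3, Sirt6 and Sirt7, the peak over the start also held a start of another gene, against 34.2% of all protein-coding genes with a peak there. Counting only other protein-coding genes, the number was 3 (Sirt2, Sirt3 and Sirt6), against 21%. A signal under such a peak cannot be assigned to one of the genes. Sirt3 and Psmd13, which encodes a subunit of the proteasome, overlap head to head by 342 bp, with 7 start sites of Psmd13 under the peak. The peak at Sirt6 held 4 starts of Ankrd24, a gene for an ankyrin repeat protein on the opposite strand, the nearest 743 bp from the Sirt6 start. At Sirt7 the other gene was the microRNA gene Mir6936, which lies inside Sirt7 on the same strand, 138 bp downstream of the reference start. Over all protein-coding genes, peaks over the TSS had a median width of 4175 bp where they held another coding start and of 3068.5 bp where they held no start of another gene. Of the members in the first class, Sirt2 was wider than this median and Sirt3 and Sirt6 were narrower.

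The promoter sequences, 250 bases before to 50 after the RefSeq start (GRCm38.p6), were matched for 7 of 7 genes and were rich in CpG except at Sirt5. The RefSeq start of Sirt6 (81627566) lies inside the gene, in exon 1 of the reference transcript, which starts at 81627797. The ratio of observed to expected CpG was 1.09 in Sirt1, 0.929 in Sirt7, 0.872 in Sirt2, 0.825 in Sirt3, 0.815 in Sirt6, 0.746 in Sirt4 and 0.52 in Sirt5. Their median was 0.825, against 0.601 over 16501 protein-coding promoters, and only Sirt5 lay below that. With 500 bp on either side of the TSS the median of the 7 genes was 0.687 against 0.593, and Sirt4, Sirt5 and Sirt6 lay below.

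The same windows were searched on both strands for short motifs known from promoters, and a match is only a match of letters. The GC box GGGCGG occurred in Sirt1, Sirt2, Sirt5 and Sirt7, and in 48.5% of all promoters. The core motif of NRF1, GCGCATGC, occurred in Sirt6 and Sirt7, and in 3.79% of all promoters. CACGTG was found only in Sirt1 of the 7 and in 8.15% of all promoters, and the CCAAT box, CCAAT, in Sirt2 and Sirt5 and in 38.5%. No sirtuin promoter held TATAAA (12.9% of all promoters), TGACGTCA (2.41%) or the myogenic E-box CAGCTG (15.2%). Matches to different motifs did not overlap, whereas a match to GGGCGG in Sirt1 and a match to GCGCATGC in Sirt6 each overlapped another match to the same motif. The stretches with the NRF1 core are given with the match in capitals, 5′ to 3′ on the strand of the sirtuin gene:
Sirt6 GCGCATGC (chr10:81627692-81627720, minus strand): gcatcaggaggGCGCATGCGCtctggaaa
Sirt7 GCGCATGC (chr11:120625021-120625049, minus strand): gggccgggcccGCGCATGCgtctctgtag
Both stretches lay under the peak at the start of the gene, in bases that are also annotated as exon. The stretch of Sirt6 lay in exon 1 of Sirt6-201, downstream of its reference TSS.

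A list of 19 genes, those that make or use NAD, the cosubstrate of the sirtuins, and 2 binding partners of SIRT1 (Ccar2 and Rps19bp1), was described in the same way. A promoter peak within 3 kb of a TSS was found at 9 of 11 synthesis genes, at 5 of 6 genes that use NAD or its precursor and at 2 of 2 partners. Over the list this was 16 of 19, which is 84.2% against the 67.8% of all protein-coding genes, with a median width of 3532.5 bp. By the same measure the sirtuin genes had a median of 3604 bp and all protein-coding genes one of 3430 bp. The widest of the list was 9322 bp at Sarm1, an NAD-cleaving enzyme, close to the 9625 bp of Sirt2, and the narrowest was 1358 bp at Cd38, another NAD-cleaving enzyme. Nmrk2, Qprt and Bst1 had none. A peak over the reference TSS was found at 14 of the 19 genes, against 57.9% of all protein-coding genes. Nampt and Cd38 had a promoter peak but none over that TSS. Of the 11 histone deacetylase genes of the zinc-dependent classes, 10 had a promoter peak, from 929 bp at Hdac6 to 23475 bp at Hdac4, with a median of 3802.5 bp, and Hdac9 had none. By this measure the sirtuin genes spanned a narrower range of widths than these deacetylases, 2339 to 9625 bp. For the peak over the reference TSS the order was reversed. Of the deacetylase genes 9 had such a peak, from 2428 to 7335 bp wide, and the sirtuin genes again spanned 2339 to 9625 bp.

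As a check of the cell type, 5 of 5 MuSC markers (Pax7, Myf5, Cdh15, Calcr and Itga7) had a promoter peak, from 7972 to 30239 bp wide with a median of 21301 bp, and 5 of 9 markers of endothelial, immune and fibro-adipogenic cells had one, with a median of 4396 bp. In these cell types Cdh5, Ptprc, Cd3e and Ly6a had no promoter peak, whereas Pecam1 (3440 bp), Tek (12975 bp), Cd68 (2636 bp), Pdgfra (4396 bp) and Dcn (5233 bp) had one, and that of the endothelial gene Tek was wider than those of Cdh15 and Itga7. The part of other cells in the peaks at the sirtuin genes was not tested.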

How the data were processed

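H3K56ac ChIP-seq was carried out by the authors on FACS-sorted MuSCs with libraries from an Ion ChIP-Seq kit. The authors trimmed reads with Trim Galore, aligned them to mm10 with bowtie (uniquely placed reads only), discarded duplicates with Picard, called peaks with MACS2, removed blacklisted regions and merged overlapping peaks with GenomicRanges. The deposited list holds interval starts and ends, with a score of 0 throughout. Which libraries entered the merge is not given in the sources used here, and the list holds no read depth behind an interval; the study states depth per library, which cannot be tied to intervals here. Merging widens and fuses intervals, and the demand for unique placement lowers coverage of repeats.

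Intervals were compared with GENCODE M21 (GRCm38) in Python 3.11.15 with pysam 0.24.0. The reference transcript had the best APPRIS level, then the TSS nearest the RefSeq start. Promoter peaks were the widest within 3 kb of any TSS; exons, sharing and reach used the peak over the reference TSS. Functions were tested on simulated intervals. Named genes were the members, genes with a TSS or body under the peaks of a window, and the widest, narrowest and missing of the NAD and deacetylase lists. Members and lists were chosen with earlier results of these data known. Alternatives were other flanks, promoter definitions, joined intervals and a minimum width of 500 bp. Comparisons of Sirt6mKO with Control were not analysed here. One promoter motif is not reported here.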

Additional observations from a re-analysis of the deposited data

How the results depend on the processing

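No paired analysis was possible because the list carries no values per sample, so that replicate numbers and genotypes have no columns; for the same reason no replicate could be left out. All 7 sirtuin genes kept a promoter peak with a promoter of 1 kb, with protein-coding transcripts, with the reference TSS alone and with a peak directly over a TSS. The 35 peaks became 19 without flanks and 23 when intervals less than 1 kb apart were joined, and 31 to 47 with flanks of 5 or 20 kb or with intervals of at least 500 bp. The median promoter peak width of 3604 bp became 3763 bp with joined intervals and 3111 bp with the peak nearest the reference TSS, because Sirt4 moved from 4362 to 3096 bp. The median percentile of these widths became 52.3 among genes within 50% of the length, 41.9 with joined intervals and 42.2 with the peak over the reference TSS, the last chosen after seeing the data. The median covered share of 23.2% became 23.7% with 10 kb on either side, and the median CpG ratio of 0.825 became 0.687 with 500 bp on either side of the TSS. Of 25 alternative values for the summaries, 16 stayed within their limits and 9 moved. The limits differed between results, so these counts do not measure the size of the changes. For example, 47 peaks against 35 counted as unchanged, whereas a covered share of 23.7% against 23.2% counted as moved. Values of single genes moved more often, in 35 of 49 alternatives, and 14 stayed the same. With joined intervals Sirt2 was at width percentile 90.3 and Sirt1 at 77.9, against 95.8 and 58.1 for their promoter peaks in the main setting. Sirt6 was then lowest, at 22.8. The list is a union without strengths, so widths and gaps depend on how the libraries overlapped.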
